A study of Mus musculus with 2 samples.

Results

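Long noncoding RNAs that act in, or are kept in, the nucleus were followed through sorted mouse retinal cells. They were Malat1, Meg3, Snhg11, Mir124-2hg, Miat, Neat1 and Kcnq1ot1. The 7 members were chosen by name among the 31053 genes of the expression matrix. In the sorted rods, Malat1 was all or little. Of 645 rods, 524 held no Malat1 UMI (a unique molecular identifier, which counts 1 captured RNA molecule), while 27 rods held more than 20 each and together carried 97.3% of the Malat1 found in rods. Those 27 rods included 13 of the 15 rods with Kcnq1ot1 and all 5 rods with Neat1, and they had little mitochondrial RNA, with a median of 6.08% of UMIs against 15.8% in rods without Malat1. In bipolar cells, 36 of 42 held Malat1. Meg3, Mir124-2hg and Kcnq1ot1 were found mostly in those 36, but only 6 bipolars lacked Malat1, and detection went with depth.

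A long noncoding RNA of this kind is transcribed and often spliced and polyadenylated like a messenger RNA but is not exported to ribosomes. Malat1 concentrates in nuclear speckles, where splicing factors are stored, and is among the most abundant polyadenylated RNAs of many mammalian cells. Neat1 is the scaffold of paraspeckles. Kcnq1ot1 is a very long antisense RNA, transcribed from the paternal chromosome, that silences neighbouring imprinted genes. Meg3 is an imprinted RNA expressed from the maternal chromosome and is abundant in neurons. Miat (also called Gomafu) is a nuclear RNA first described in the nervous system and retina. Mir124-2hg is a host transcript of the neuronal microRNA miR-124. Snhg11 is a host gene of small nucleolar RNAs and is expressed in neurons. Because such RNA stays in the nucleus while mitochondrial and messenger RNA lie outside it, the 2 kinds of RNA are often read side by side in single-cell data, which is the comparison made here.

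The cells came from wild-type retinas electroporated at birth with the pCIG2 plasmid, whose IRES2-EGFP cassette marks transfected cells, either empty or carrying lamin A or Lbr, which are proteins that hold heterochromatin at the nuclear edge. Adult retinas were dissociated, and EGFP-positive cells that excluded Dapi were sorted. Each condition was stained with 1 of 3 lipid-anchored oligonucleotides (Multi-seq tags), and all were pooled in 1 Chromium run, from which come an expression library and a tag library. Electroporation leaves transfected and untransfected cells in the same retina, and the cells are labelled as rods. The labels do not say which tag marks which plasmid, so the tags are called tag 1, tag 2 and tag 3. Their 8 bases, 5′ to 3′, as deposited, are shown because every tag comparison rests on them, with capitals marking the whole tag:

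tag 1: GGAGAAGA

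tag 2: CCACAATG

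tag 3: TGAGACCT

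The expression matrix held 834 cells, with a median of 2395 UMIs, of which 645 also had a tag count. After 27 likely doublets were left out, the other 807 fell into 645 rod-like, 42 bipolar-like, 93 Müller glia-like, 10 cone-like and 17 microglia-like cells by marker genes, with the 7 members, mitochondrial genes and related nuclear RNAs kept out of the clustering. The label of rods thus fitted most but not all cells. Median UMIs were 2429 in rods, 8221 in bipolars and 1092 in Müller glia-like cells. Median mitochondrial shares were 16%, 20.9% and 48.9%. All tags share 1 pool and no condition was repeated, so no test between conditions was possible and no p-value is given. Intervals are 95% intervals (exact Poisson for sums, Clopper-Pearson for shares, exact conditional for ratios) and cover counting error only.

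Complementary DNA in this chemistry is primed by oligo-dT, which pairs with any run of A. The longest run of A in the longest transcript of each member is therefore shown for the 4 members with the most UMIs, from GENCODE M21 (GRCm38, the mm10 assembly), 5′ to 3′ on the transcript strand, with the run in capitals:

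Malat1: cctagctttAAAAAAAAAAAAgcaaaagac

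Mir124-2hg: tgtcgctgAAAAAAAAAAAAAAAAAAAAAA

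Meg3: caagaccAAAAAAAAAAAAAAAAcaaaaac

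Kcnq1ot1: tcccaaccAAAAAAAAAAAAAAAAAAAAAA

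The runs are 12 bases long in Malat1, 31 in Mir124-2hg, 16 in Meg3 and 41 in Kcnq1ot1, and those of Mir124-2hg and Kcnq1ot1 are shown only in part. The Malat1 run ends 298 bases before the 3′ end of the transcript. In Snhg11, Miat and Neat1 the longest runs are 8, 4 and 7 bases. A run of at least 10 A occurs in 7.555% of 15671 annotated long noncoding transcripts. The runs are a description of the transcripts, and where reads started was not analysed here.

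Malat1 (ENSMUSG00000092341) lies on chr19:5795690-5802672 of GRCm38, minus strand, and its annotated exons cover the whole gene. Neat1 lies close by on chr19:5824708-5845478, minus strand. Kcnq1ot1 is a single exon on chr7:143203458-143296549, minus strand, antisense to Kcnq1. Meg3 lies on chr12:109541001-109571726, plus strand, and Mir124-2hg on chr3:17789921-17808970, plus strand. Miat lies on chr5:112213228-112229395, minus strand, and Snhg11, which this annotation types as protein coding, on chr2:158375638-158386145, plus strand. Kcnq1ot1, Meg3 and Miat each overlap 1 gene of the matrix on the other strand. No source used here gives the strand setting of the counting, so reads from such a pair cannot be told apart.

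Over all 834 cells, Malat1 had 26309 UMIs in 201 cells and Mir124-2hg 2279 UMIs in 343 cells. Meg3 had 381 UMIs in 33 cells and Kcnq1ot1 331 UMIs in 47 cells. Neat1 had 21 UMIs in 9 cells, Snhg11 had 1 UMI in 1 cell and Miat had 0. Malat1 was thus the most counted member, but Mir124-2hg was found in more cells. Counts are not adjusted for transcript length, so this is an order of counts and not of molar levels.

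In rods, Malat1 made 12140 UMIs, or 6749 counts per 1000000 UMIs (CPM; 6629 to 6870), and 121 of 645 rods (18.8%, 15.8 to 22) held at least 1. The median among those 121 rods was 3 UMIs and the highest value 3822, which was 31.5% of the Malat1 of all rods. The level in rods was therefore carried by few cells, and it was 4856 CPM without that cell and 214 CPM without cells holding over 20 Malat1 UMIs. When every cell was thinned to 1000 UMIs to even out depth, 75 of 584 rods (12.8%) held Malat1. The 1000 UMIs included mitochondrial ones, so cells with a higher mitochondrial share kept fewer UMIs of other genes.

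In bipolars, which relay photoreceptor signals to the inner retina, Malat1 made 11129 UMIs and 34487 CPM (33850 to 35134). It was found in 36 of 42 bipolars (85.7%, 71.5 to 94.6), with a median of 322 UMIs and a highest value of 729. Thinned to 1000 UMIs, 31 of 37 bipolars (83.8%) still held Malat1, so the share lay far above that of rods at equal depth. The 6 bipolars without Malat1 had a median mitochondrial share of 60.4% and a median of 201.5 genes, whereas the 33 bipolars with over 20 Malat1 UMIs had 20.4% and 1607 genes.

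Müller glia-like cells had 138 Malat1 UMIs in 23 of 93 cells (24.7%, 16.4 to 34.8) and 963 CPM (809 to 1138), with a highest value of 27 UMIs. Thinned, 10 of 53 (18.9%) held it, against 12.8% of rods. Of these 93 cells only 8 met the limits that the study states for a usable cell (200 to 2500 genes and at most 18% mitochondrial UMIs), against 358 of 645 rods. Cone-like cells held 713 Malat1 UMIs in 6 of 10 cells, and microglia-like cells 1532 in 6 of 17. In CPM, bipolars stood highest, followed by microglia-like cells at 22659 (21539 to 23823) and cone-like cells at 20219 (18762 to 21759), then rods and Müller glia-like cells. This order depended on the cells used. Within the stated limits Müller glia-like cells, 8 in number, stood at 7504 CPM against 3126 in rods, and cone-like cells at 33155 against 20535 in microglia-like cells. Without cells with over 20 Malat1 UMIs, Müller glia-like cells were at 636 and rods at 214, and with 1 count per gene and cell at 1267 and 356. In cone-like cells 1 cell held 442 of the 713 UMIs, and the level was 11426 CPM (10106 to 12871) without it, below the 19009 (17817 to 20259) of microglia-like cells without their top cell.

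**Figure D1:**
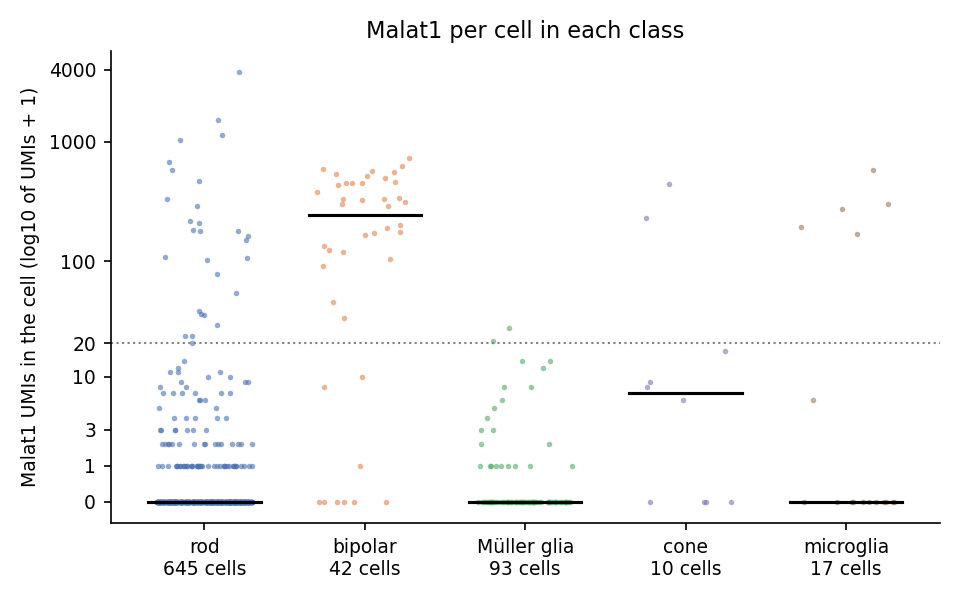
Malat1 UMIs in each cell (log10 of UMIs + 1) for the 5 cell classes, 1 point per cell, with the class median as a black line and 20 UMIs as a dotted line. Most rods and Müller glia-like cells lie at 0, 27 of 645 rods lie above the dotted line, and 33 of 42 bipolars do.

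Mir124-2hg was the member that most rods held. It made 1641 UMIs in 293 of 645 rods (45.4%, 41.5 to 49.4), or 912 CPM (869 to 958), with a median of 3 UMIs and a highest value of 311. In bipolars it made 513 UMIs in 33 of 42 cells (78.6%, 63.2 to 89.7), or 1590 CPM (1455 to 1733), with a median of 16 UMIs. In cone-like cells it made 13 UMIs in 3 of 10 cells (30%, 6.67 to 65.2), or 369 CPM. Mir124-2hg was close to absent in Müller glia-like and microglia-like cells. It was found in 3 of 93 Müller glia-like cells (3.23%, 0.670 to 9.14), at 41.9 CPM, and in 0 of 17 microglia-like cells, which allows a share of up to 19.5%. The rod share stood far above the Müller glia-like share, in a class that should lack this neuronal RNA. That class is no firm background level. Its median was 1092 UMIs, 83 of its 93 cells had no tag count, and only 8 met the stated limits. Thinned to 1000 UMIs, the shares were 33.9% in rods, 64.9% in bipolars, 20% in the 10 cone-like cells and 3.77% in Müller glia-like cells. UMIs other than mitochondrial ones were not evened out. Median mitochondrial shares were 48.9% in Müller glia-like cells and 16% in rods.

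Meg3 was a bipolar RNA in these cells. It made 355 UMIs in 28 of 42 bipolars (66.7%, 50.5 to 80.4), or 1100 CPM, with a highest value of 36 UMIs. In rods it was found in 1 of 645 cells, which held 13 UMIs, and in Müller glia-like cells in 3 of 93. Cone-like and microglia-like cells held none. The rod share lay below the Müller glia-like share of 3.23%. Beyond the 1 rod, no Meg3 in rods as a class was detectable at this depth.

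Kcnq1ot1 made 157 UMIs in 25 of 42 bipolars (59.5%, 43.3 to 74.4), or 487 CPM, and 151 UMIs in 15 of 645 rods (2.33%, 1.31 to 3.81), or 83.9 CPM. One rod held 60 of those 151 UMIs. It was found in 0 of 93 Müller glia-like cells, which allows a share of up to 3.89% and is no close limit, since these cells were shallow. Microglia-like cells held 12 UMIs in 2 cells and cone-like cells 1 UMI. Neat1 made 8 UMIs in 5 rods, 11 UMIs in 3 bipolars and 2 UMIs in 1 microglia-like cell. Snhg11 had its single UMI in a bipolar, and the count of 0 for Miat allows at most 2.05 CPM in rods and 11.4 CPM in bipolars.

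**Figure D2:**
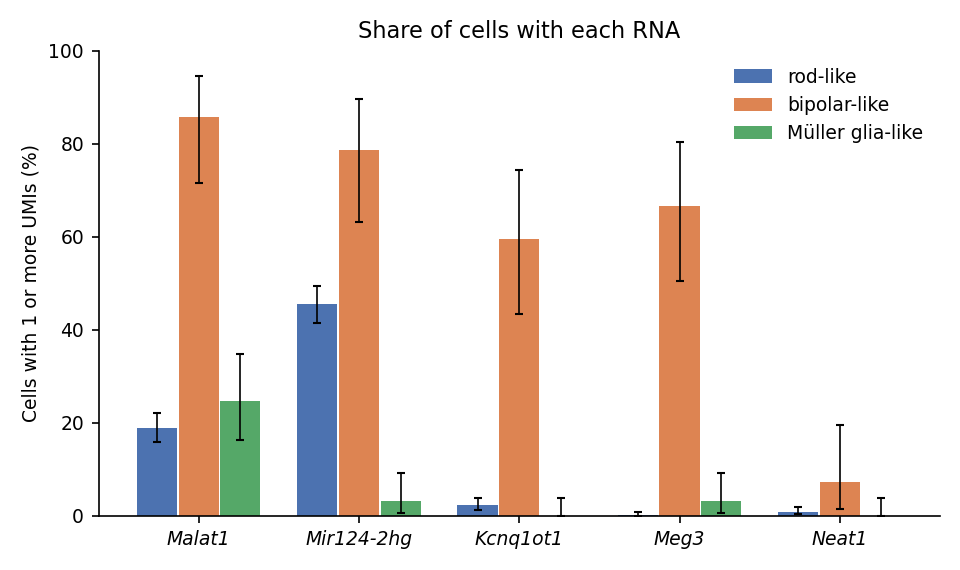
Share of cells (%) with at least 1 UMI of each RNA in 645 rod-like, 42 bipolar-like and 93 Müller glia-like cells, with Clopper-Pearson 95% intervals as bars. Bipolars were highest for all 5 RNAs shown, and Mir124-2hg was the only one in over 40% of rods.

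In CPM, bipolars held more Malat1, Meg3 and Kcnq1ot1 than rods by over 2-fold. The log2 ratio of bipolars over rods was 2.35 (2.32 to 2.39) for Malat1, 7.20 (6.46 to 8.17) for Meg3 and 2.53 (2.20 to 2.87) for Kcnq1ot1. For Mir124-2hg it was 0.80 (0.66 to 0.95), short of 2-fold, and its order turned with 1 count per gene and cell (624 CPM in bipolars, 862 in rods) and without cells with over 20 Malat1 UMIs (402 and 608). Among 2197 genes with at least 20 expected UMIs on both sides, 12.5% were higher in bipolars by at least 2-fold, and the median log2 ratio was -0.32. Of the 4 members that met this minimum, 3 were past 2-fold. Meg3 met it only through the bipolars, with 355 UMIs there and 13 in rods, all in 1 rod, so its place in this count is a description. Müller glia-like cells held less Malat1 and Mir124-2hg than rods, with log2 ratios of -2.80 and -4.33, but for Malat1 the direction turned under the 3 alternatives given above. There the background was wide, since 57.1% of 949 genes were lower by at least 2-fold and the median was -1.26. Mir124-2hg, with 6 UMIs in Müller glia-like cells, met the minimum only through the rods.

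The number of different members in a cell followed the same order. At least 2 of the 7 were found in 33 of 42 bipolars (78.6%), in 69 of 645 rods (10.7%) and in 3 of 93 Müller glia-like cells (3.23%). At least 3 were found in 30 bipolars (71.4%) and in 14 rods (2.17%). These shares were not thinned, and bipolars were more than 3 times as deep as rods by median.

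Among rods, Malat1 counts were grouped as 0, 1 to 2, 3 to 20 and over 20, with limits set after the distribution had been seen. The groups held 524, 58, 36 and 27 rods. Malat1 values in the 27 Malat1-rich rods ran from 23 over a median of 180 to 3822, and the highest values among the other rods were 20, 14 and 12. The limit thus fell between 20 and 23. In the median Malat1-rich rod, Malat1 made 4.72% of UMIs other than mitochondrial ones, close to the 5.05% in the 33 bipolars with over 20. Median UMIs were 2411, 2386, 2411 and 3205 in the 4 groups, so the Malat1-rich rods were deeper, and 6 of them exceeded 2500 genes. The deepest had 85822 UMIs and 7614 genes, which was 31.6% of all UMIs of the 27. It was called a singlet of tag 1 and was not called a doublet by Scrublet.

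Rod identity was checked with 15 rod markers. Each of the 15 was found in at least 1 Malat1-rich rod. Any rod marker at all was found in 25 of these 27 cells and in 523 of 524 rods without Malat1. Not all of the 27 thus held a rod marker, and those without one stay in the counts because their cluster was named rod. Together the 15 markers made 101271 CPM in the Malat1-rich rods, against 163942 in rods without Malat1. The scale here and for the gene lists is UMIs that were neither mitochondrial nor Malat1. Of 12 bipolar markers, 8 were found in the Malat1-rich rods at 609 CPM in all (0 to 7246 per cell), against 69.3 CPM in rods without Malat1 and 46175 in bipolars. Of 12 Müller glia markers all 12 were found, at 2192 CPM (0 to 15901 per cell) against 918. Of 12 microglial markers 2 were found, at 24.9 CPM, and 10 were at 0. The part of these other cell types in the Malat1-rich rods was not tested.

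Kcnq1ot1 was found almost entirely in Malat1-rich rods. It was present in 13 of 27 (48.1%, 28.7 to 68.1), with 147 UMIs, and in 2 of the other 618 (0.324%), with 4 UMIs, a log2 ratio of CPM of 7.43 (6.21 to 9.49). Neat1 was present in 5 of 27 (18.5%, 6.30 to 38.1), with 8 UMIs, and in 0 of 618. The only rod with Meg3 was also one of the 27. Meg3 was in 1 of 27 Malat1-rich rods (3.70%, 0.0937 to 19.0) and in 28 of 33 Malat1-rich bipolars (84.8%, 68.1 to 94.9). These shares were not thinned, and median UMIs were 3205 in the former and 9314 in the latter. Mir124-2hg was found in 23 of 27 Malat1-rich rods (85.2%, 66.3 to 95.8), against 43.3%, 44.8% and 47.2% of rods with 0, 1 to 2 and 3 to 20 Malat1 UMIs. In CPM it stood at 2951 in Malat1-rich rods and 732 in the others, a log2 ratio of 2.01 (1.87 to 2.15), past 2-fold, and 1 rod held 311 of the 712 UMIs in the former. It was also the only member found in many rods without Malat1. Over all genes tested in this comparison, 17.9% were past 2-fold higher. Kcnq1ot1, with 4 UMIs in the other rods, was tested only through the Malat1-rich rods, so its ratio is a description.

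To take depth out of these shares, each rod was thinned to 500 UMIs that were neither mitochondrial nor Malat1, which left out 19 shallower rods. Mir124-2hg was then found in 39 of 116 rods with Malat1 (33.6%, 25.1 to 43.0) and in 114 of 510 without (22.4%, 18.8 to 26.2), a log2 ratio of shares of 0.60 (-0.06 to 1.19), whose interval includes 0. It was 0.95 (0.26 to 1.54) when 2 or more Malat1 UMIs were asked for and 0.69 (0.12 to 1.22) over cells of all classes. Of 1705 genes found in at least 20 of these rods, 6.57% were past 2-fold higher and 4.46% past 2-fold lower, with a median of 0.09. Mir124-2hg, the only member that reached 20 rods, was not past 2-fold. The difference sat in the Malat1-rich rods, where 17 of 26 (65.4%, 44.3 to 82.8) held Mir124-2hg, against 22.4%, 21.4% and 29.4% in the groups with 0, 1 to 2 and 3 to 20 Malat1 UMIs. Against all other rods, the log2 ratio for rods with over 20 Malat1 UMIs was 1.56 (0.76 to 2.10). Kcnq1ot1 was found in 6 of 26 thinned Malat1-rich rods (23.1%, 8.97 to 43.6) and in 0 of 510 rods without Malat1 (0 to 0.721%). Without the Malat1-rich rods the Mir124-2hg ratio was 0.16 (-0.71 to 0.88), and without cluster 4, described below, 0.32.

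**Figure D3:**
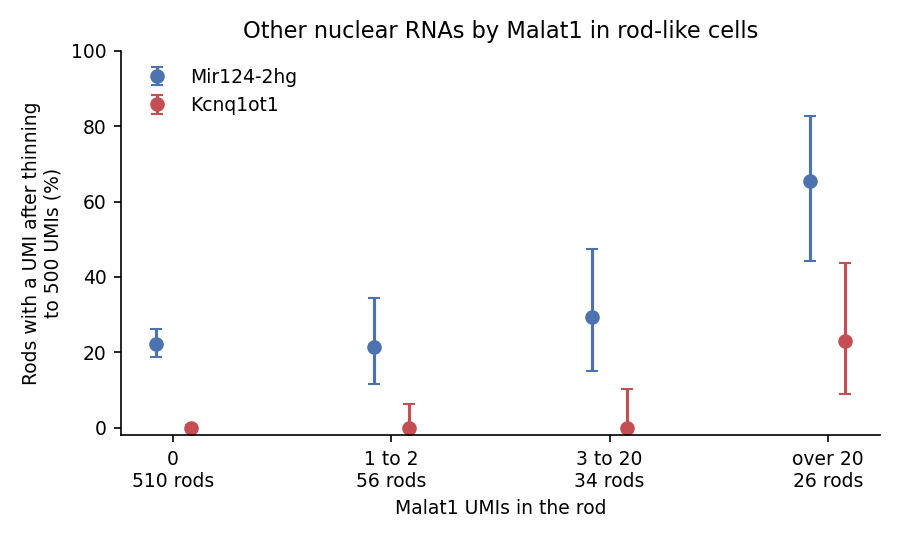
Share of rod-like cells (%) with Mir124-2hg or Kcnq1ot1 by the Malat1 UMIs of the rod, after thinning to 500 UMIs, with Clopper-Pearson 95% intervals. Mir124-2hg lies between 21.4% and 29.4% up to 20 Malat1 UMIs and at 65.4% above, and Kcnq1ot1 is at 0 up to 20 and at 23.1% above.

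Without thinning, the same direction was seen within subsets that share a tag or a mitochondrial range. Depth was not taken out of these shares, and the Malat1-rich rods were deeper. Among rods of tag 1, Kcnq1ot1 was found in 11 of 22 Malat1-rich rods and 1 of 221 others, and Mir124-2hg in 21 of 22 and 116 of 221 (52.5%). Among rods with at most 10% mitochondrial UMIs, Kcnq1ot1 was found in 10 of 22 Malat1-rich rods and 0 of 103 others. Among rods that met the stated limits of genes and mitochondrial share, it was found in 6 of 19 and 0 of 339, and Mir124-2hg in 16 of 19 and 167 of 339 (49.3%). Outside cluster 4, Kcnq1ot1 was found in 5 of 14 Malat1-rich rods and 2 of 613 others. Tag 2 had 2 Malat1-rich rods, too few for a value.

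In bipolars the members came together as well, although only 6 bipolars lacked Malat1. Meg3 was found in 28 of 36 bipolars with Malat1 and 0 of 6 without, Mir124-2hg in 32 and 1, and Kcnq1ot1 in 25 and 0. Spearman correlations over the 42 bipolars between total UMIs and the UMIs of each RNA were 0.82 for Malat1, 0.69 for Meg3, 0.66 for Mir124-2hg and 0.59 for Kcnq1ot1, so co-detection there went with depth. The points share 1 library, and shares over all genes were not compared in bipolars. In Müller glia-like cells Meg3 was found in 2 of 23 cells with Malat1 and 1 of 70 without.

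Of 5 rod clusters, cluster 4 concentrated the members. Its 18 rods, led by the genes Rpgrip1, Tmem108, Rims2 and Zcchc7, had a median of 6031 UMIs and 8.06% mitochondrial share. They held 10136 of the Malat1 UMIs of rods (83.5%), 660 of the Mir124-2hg UMIs (40.2%), 130 of the Kcnq1ot1 UMIs (86.1%) and 7 of the 8 Neat1 UMIs. Much of this came from 1 cell, the deepest rod, with 3822 Malat1, 311 Mir124-2hg, 60 Kcnq1ot1 and 4 Neat1 UMIs. By tag, 15 of the 18 rods were tag 1, 3 were tag 2 and 0 were tag 3. Of the 18, 14 held Malat1, and 13 of the 27 Malat1-rich rods lay here. Malat1 stood at 42862 CPM of non-mitochondrial UMIs in cluster 4, near the 44853 of bipolars, and between 576 and 3349 in the other 4 rod clusters. Without cluster 4 the Malat1 level of rods fell to 1299 CPM.

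Other RNAs known to stay in the nucleus were compared in the same 27 rods. Mir124a-1hg, another host transcript of miR-124, had 381 of its 406 rod UMIs in 19 of the 27 Malat1-rich rods, a log2 ratio of 6.30 (5.74 to 6.97) against the other 618. Rncr4, a retinal noncoding RNA, had 31 UMIs in 7 Malat1-rich rods and 173 in 61 others, a ratio of -0.07 (-0.69 to 0.47). Gm42418, a repeat-rich locus near ribosomal RNA sequence, was lower at -0.88. Of 24 further nuclear noncoding RNAs listed, 17 were in the matrix and these 3 had enough UMIs, of which 1 was past 2-fold higher. These 3 thus went in different directions, and Mir124a-1hg had enough UMIs only through the Malat1-rich rods.

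A list of messenger RNAs known for nuclear detention or regulated splicing behaved more evenly. Of 19, 15 had enough UMIs, 15 were above 0 and 11 were past 2-fold higher in Malat1-rich rods, with a median log2 ratio of 1.54. Among all 1907 genes tested 17.9% were past 2-fold higher, 19.3% past 2-fold lower, and the median was -0.23. Pnisr, Nktr and Clk1, which are linked to splicing, had ratios of 3.85 (3.37 to 4.36), 3.52 (3.12 to 3.95) and 3.34 (2.80 to 3.90). Their UMIs were 135, 160 and 85 in Malat1-rich rods and 49, 73 and 44 in the others. The minimum was taken over both groups together, and these genes met it only through the Malat1-rich rods. Luc7l2 and Tia1 (91 and 72 against 73 and 54 UMIs) did so too. All of these are among the 11, so that count is a description. Ddx5, Srrm2, Rbm39 and Srsf7 were below 2-fold, at 0.93, 0.97, 0.83 and 0.53. Summed over the whole list, with no minimum, the level was 9839 CPM in Malat1-rich rods and 3404 in the others. Of 80 ribosomal protein messenger RNAs, which are cytoplasmic, 73 had enough UMIs, 21 were past 2-fold lower and 0 past 2-fold higher, with a median of -0.85 and a summed level of 57685 against 105557 CPM. Cytoplasmic noncoding RNAs summed to 443 against 411 CPM but went both ways. Of 14 listed, 5 were in the matrix and 3 had enough UMIs, of which 1, Snhg6, was past 2-fold lower (-1.37, -2.61 to -0.48) and 1 was above 0, with a median of -0.54. Snhg20, with too few UMIs for this count, had 45 UMIs in Malat1-rich rods and 55 in the others, at 186 and 43.4 CPM.

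Depth and a single cell touch these list values. Without the deepest rod, 7 of 9 tested nuclear-detained messenger RNAs were past 2-fold higher with a median of 1.21, against 10.8% of 1283 genes and a median of -0.27, and for ribosomal protein genes the median was -0.72. Among the 19 Malat1-rich rods within the stated limits, only 3 nuclear-detained messenger RNAs had enough UMIs, of which 1 was past 2-fold, against 4.12% of 486 genes, while the sum of the list was 8242 CPM. With only the 22 Malat1-rich rods of tag 1, the median was 1.52 over 14 genes. In each of these settings the other side stayed the 618 other rods, of all tags and mitochondrial shares. Tag and stated limits were thus not matched between the sides. The part of depth in the contrast was not tested further.

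When any Malat1 UMI was taken as the criterion, so that rods with 1 or 2 UMIs counted too, the lists were compared again by shares of thinned rods. Of 9 tested nuclear-detained messenger RNAs 0 were past 2-fold higher and 2 past 2-fold lower (Srrm2 and Srsf5), with 6 of 9 above 0 and a median of 0.64, against 6.57% higher, 4.46% lower and a median of 0.09 over all genes. Of 74 ribosomal protein genes 3 were past 2-fold lower, and the median was -0.33. The 5 genes with the highest log2 ratios of shares were Mpped2, Ddx17, D1Ertd622e, Gas7 and Immt, at 2.41, 1.92, 1.84, 1.77 and 1.77. Gas7, a cytoskeletal regulator, was found in 34.6% of Malat1-rich rods, 2.94% and 0% of rods with 3 to 20 and 1 to 2 Malat1 UMIs, and 2.55% of rods with none. The 5 lowest were Btbd1, Immp1l, Psmd1, Pet100 and Rnaseh2c, at -2.16, -2.21, -3.22, -3.36 and -3.59. The last 3 were in 0 of 116 rods with Malat1 and in 20 to 26 of 510 without. These genes were picked by their ratios, so the ratios are a description.

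Mitochondrial share was compared next, with all levels as CPM of non-mitochondrial UMIs so that mitochondrial RNA did not dilute them. In 383 rods at or below 18% and 262 rods above it, Malat1 had 11922 and 218 UMIs, which is 10937 and 505 CPM, a log2 ratio of -4.43 (-4.64 to -4.24). Kcnq1ot1 had 138 and 13 UMIs, a ratio of -2.02 (-3.02 to -1.25), and Mir124-2hg 1355 and 286, a ratio of -0.91 (-1.10 to -0.72). Of 3084 genes tested 10.6% were lower by at least 2-fold and 2.79% higher, and the median was -0.07. Malat1 and Kcnq1ot1 were past 2-fold lower, and Mir124-2hg was not. With a limit of 25% in place of 18%, Malat1 stayed past 2-fold at -3.75, whereas Kcnq1ot1 was -0.31 (-1.46 to 0.55) and Mir124-2hg -0.19 (-0.47 to 0.07). All 8 Neat1 UMIs and the 13 Meg3 UMIs were in rods at or below 18%.

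This difference rested on the Malat1-rich rods, 26 of which lay at or below 18%. Without them the Malat1 ratio turned to 1.52, and the Kcnq1ot1 ratio turned to 4.13, on only the 4 UMIs left to it in 2 rods. Mir124-2hg moved to -0.21 (-0.42 to -0.01). Without cluster 4 the Malat1 ratio was -2.02 that of Mir124-2hg -0.31, and that of Kcnq1ot1 turned to 1.68. When each rod counted once per gene, so that only presence mattered, Malat1 stood at 0.95 and Mir124-2hg at 0.22, both turned.

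By finer steps of mitochondrial share (at most 10%, 10 to 18%, 18 to 25% and over 25%, with 125, 258, 155 and 107 rods), Malat1 stood at 24871, 640, 448 and 641 CPM. The share of rods with any Malat1 was 24%, 13.6%, 23.2% and 18.7%, with no steady order. The number of Malat1-rich rods was 22, 4, 0 and 1. Mir124-2hg, in contrast, was found in 60%, 45.7%, 40.6% and 34.6% of rods, a share that fell at each step, with median UMIs of 2438, 2804, 2356 and 1601. Its level did not fall at each step, at 2034, 659, 540 and 954 CPM.

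Over all 645 rods the Spearman correlation of Malat1 with mitochondrial share was -0.01, and among the 121 rods with Malat1 it was -0.38. For Mir124-2hg it was -0.17 over 645 rods. Over 42 bipolars it was -0.41 for Malat1. The cells share 1 library, and total UMIs correlated with mitochondrial share at -0.22 over the 645 rods, so these values are descriptive. Among bipolars with 18 to 25% mitochondrial UMIs, 15 of 15 held both Malat1 and Mir124-2hg, whereas of 11 with over 25%, 6 held Malat1 and 4 Mir124-2hg. Of 12 with 10 to 18%, 11 held Malat1 and 12 Mir124-2hg.

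**Figure D4:**
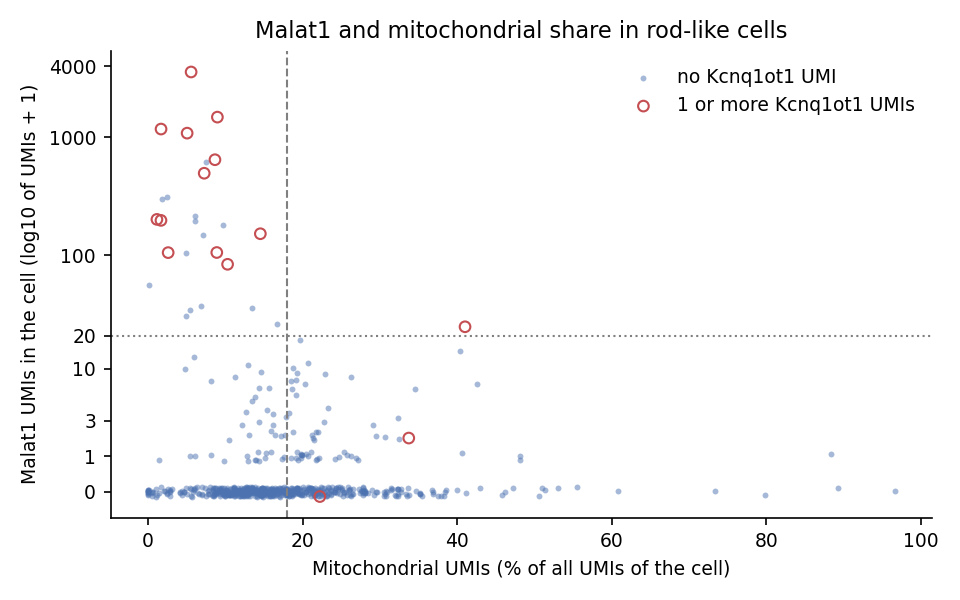
Malat1 UMIs (log10 of UMIs + 1) against mitochondrial share of UMIs (%) in 645 rod-like cells, with rods holding Kcnq1ot1 ringed in red, the 18% limit dashed and 20 Malat1 UMIs dotted. Of the 27 rods above the dotted line 26 lie left of the dashed line, and 13 of the 15 ringed rods lie above the dotted line.

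Of the lists, nuclear-detained messenger RNAs were lower above 18% in 15 of 17 tested genes, 6 of them past 2-fold, with a median of -0.71. Over all genes 1711 of 3084 were below 0, 10.6% were past 2-fold lower and the median was -0.07. Without the Malat1-rich rods, which held 160 of the 233 Nktr UMIs and 135 of the 184 Pnisr UMIs of rods, 8 of 12 nuclear-detained messenger RNAs were below 0, 2 past 2-fold lower, with a median of -0.27, against 5.52% of 2827 genes lower and a median of -0.05. Over all rods, ribosomal protein genes had 0 of 76 past 2-fold in either direction, 31 below 0 and a median of 0.03. Without the Malat1-rich rods, 60 of 76 were below 0 and 2 past 2-fold lower, with a median of -0.13. Of the 4 further nuclear noncoding RNAs tested over all rods, 3 were below 0. Mir124a-1hg (-3.32) and Vax2os (-2.09) were past 2-fold lower and Rncr4 stood at -0.24, whereas Gm42418 was past 2-fold higher at 1.17. The Malat1-rich rods held 381 of the 406 Mir124a-1hg UMIs and 71 of the 99 Vax2os UMIs of rods. Without these rods only 2 of the list were tested, of which 1 was below 0 and 1 past 2-fold higher.

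By tag, high and low Malat1 counts had opposite orders in tags 1 and 2. Of 243 rods of tag 1, 22 were Malat1-rich (9.05%, 5.76 to 13.4) and 8 held 1 to 20 Malat1 UMIs (3.29%, 1.43 to 6.38). Of 278 rods of tag 2, 2 were Malat1-rich (0.719%, 0.0872 to 2.57) and 70 held 1 to 20 (25.2%, 20.2 to 30.7). Of 34 rods of tag 3, 1 was Malat1-rich and 2 held 1 to 20. Each tag is 1 suspension of cells, so these intervals cover counting error within it and are no test between tags. The 2 remaining Malat1-rich rods had no tag.

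**Figure D5:**
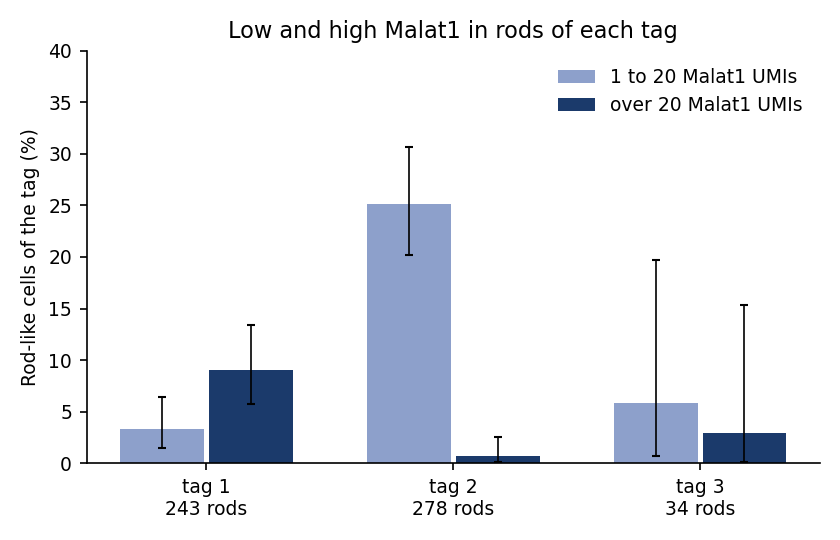
Share of rod-like cells (%) with 1 to 20 and with over 20 Malat1 UMIs among 243, 278 and 34 rods of tags 1, 2 and 3, with Clopper-Pearson 95% intervals. Tag 2 is highest for low counts at 25.2% and tag 1 for high counts at 9.05%.

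Tag 2 also held 30 of the 42 bipolars, tag 1 held 0 and tag 3 held 1. Meg3, which 28 bipolars carried, was in 0 of 278 rods of tag 2, and summed bipolar markers in rods within the stated limits were 26.7 CPM in tag 2 and 116 in tag 1, with 9 and 7 of the 12 markers at 0. The part of the bipolars in the low Malat1 counts of tag 2 was not tested. The low counts of tag 2 were found at or below 18% mitochondrial share (30 of 134 rods, 22.4%) and above it (40 of 144, 27.8%). In tag 1 all 22 Malat1-rich rods were at or below 18%, and Malat1 stood at 16212 CPM of non-mitochondrial UMIs there and 13.9 above, on 1 UMI. In tag 2 the 2 values were 480 and 530 CPM, so the mitochondrial relation of the pooled rods appeared in tag 1 and was not seen in tag 2. The difference between the tags in this relation was not tested.

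Within the stated limits of genes and mitochondrial share, 197, 134 and 24 rods remained in tags 1, 2 and 3. Malat1 had 2916, 144 and 103 UMIs in 23, 32 and 1 of these rods, or 4918, 412 and 1504 CPM. Relative to tag 1, the Malat1 log2 ratio was -3.57 (-3.83 to -3.34) in tag 2 and -1.70 (-2.01 to -1.43) in tag 3, and tag 3 stood at 1.87 (1.49 to 2.24) relative to tag 2. In the same comparisons 13.1% of 2271 genes, 10.3% of 493 genes and 14% of 478 genes were past 2-fold in either direction. The Malat1 direction between tags 1 and 2 turned to 2.12 when cells with over 20 Malat1 UMIs were left out and to 1.24 when each cell counted once, and the value for tag 3 is that of a single rod with 103 UMIs.

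Mir124-2hg was found in 116 of 197 tag 1 rods (58.9%, 51.7 to 65.8), in 59 of 134 tag 2 rods (44%, 35.5 to 52.9) and in 6 of 24 tag 3 rods (25%, 9.77 to 46.7). Relative to tag 1 its log2 ratio was -0.58 (-0.82 to -0.35) in tag 2 and -1.84 (-2.67 to -1.19) in tag 3, and tag 3 stood at -1.26 (-2.11 to -0.59) relative to tag 2. The values of tag 3 were past 2-fold, on 17 UMIs. With 1 count per gene and cell they were -0.97 and -0.78, short of 2-fold, and relative to tag 2 also -0.75 without the stated limits and -0.87 at resolution 2 of the clustering. Tag 2 over tag 1 was past 2-fold at -1.25 (-1.42 to -1.08) without the stated limits, and -0.20 (-0.68 to 0.26) with 1 count and -0.03 over cells of all classes. Kcnq1ot1 had 15 UMIs in 5 tag 1 rods, 0 among those of tag 2 and 1 UMI for tag 3, Neat1 had 1 UMI in tag 1, and Meg3 had none in any tag. With 1 pool and no repeat of a tag, tag and condition cannot be told apart from the preparation of each cell suspension.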

How the data were processed

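Retinal cells from 1 pool of 3 tagged suspensions were read in an expression library and a tag library. The authors deposited raw counts: UMI counts per gene and cell from Cell Ranger (6.1.2 in their methods and labels, 3.1.0 in the matrix header, mm10), tag counts, and a tag call per cell, which was used as given. The members and gene lists were chosen with earlier results of these data known, as was the limit of 20 Malat1 UMIs.

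All 834 barcodes were kept, except 22 tag doublets and 5 doublets called by Scrublet (27 in all). The rest were clustered with Scanpy 1.11.5 (Leiden, resolution 1, 30 principal components, 2000 variable genes) without the members, and classes were named from markers. The limits of the study (200 to 2500 genes, at most 18% mitochondrial UMIs) were used for the tag comparison. The median of 2395 UMIs per cell limits what a count of 0 means. With 1 pool there is no replicate and no test. UMIs were summed per class and compared as log2 ratios with 0.5 added. Called means past 2-fold with at least 20 expected UMIs on both sides, or 20 rods with a UMI for shares. Expected UMIs were taken from the sum of both sides, so a gene high on only 1 side could meet this minimum. Genes named in the text are the 7 members, list genes found in at least 20 rods (large lists as counts) and the 5 highest and 5 lowest in co-detection. The ratio was tested on simulated data. Other clusterings, limits, thinning and left-out cells were tried. No column of per-sample values was left unused.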

Additional observations from a re-analysis of the deposited data

Results flagged for a closer look

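Malat1 was also found in the 27 cells left out as doublets, which no comparison used. They held 657 Malat1 UMIs in 9 cells, 3 of them with over 20 UMIs, above a floor set at 3 UMIs, and 106 Mir124-2hg UMIs in 11 cells. With them kept, Malat1 in rods was 6593 CPM.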

How the results depend on the processing

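Malat1 in rods (6749 CPM) was 3126 in cells within the stated limits, 6593 with doublets kept, 7141 at resolution 2, 4856 without the top cell, 7978 over non-mitochondrial UMIs, 356 with 1 count per gene and cell, 1299 without cluster 4 and 214 without cells with over 20 Malat1 UMIs. For tag 2 over tag 1, the log2 ratio of Malat1 (-3.57) was -4.99 without the limits and turned to 0.87 in all cells regardless of class, 1.24 with 1 count per cell and 2.12 without cells with over 20 Malat1 UMIs. In all cells, Kcnq1ot1 turned to 1.76 and Malat1 for tag 3 over tag 1 to 0.40. Malat1 for tag 3 over tag 2 turned to -0.48 in all cells, -2.02 with 1 count, -5.37 without the top cell and -5.03 without cells with over 20 Malat1 UMIs. All-cell ratios include the bipolars, most of which were tag 2. Across the mitochondrial limit, Malat1 (-4.43) was -3.75 at a limit of 25%, -4.68 per all UMIs, -4.15 without the top cell and -2.02 without cluster 4. It turned to 0.95 with 1 count per cell and 1.52 without rods with over 20 Malat1 UMIs. Mir124-2hg turned to 0.22 with 1 count, and Kcnq1ot1 to 4.13 without rods with over 20 Malat1 UMIs and 1.68 without cluster 4. Co-detection of Mir124-2hg (0.60) was 1.56 for more than 20 Malat1 UMIs. Leaving out cluster 4 or cells with over 20 Malat1 UMIs, and the criterion of more than 20, were chosen after seeing the data. Over all members, pairs and alternatives, 85 levels, 75 tag ratios, 31 mitochondrial ratios and 29 co-detection ratios stayed within the interval of the reported value. Outside it lay 83 levels, 11 tag ratios, 11 mitochondrial ratios and 1 co-detection ratio, and a further 9 tag ratios and 5 mitochondrial ratios turned. At the limit of 25%, Kcnq1ot1 (-0.31) fell short of 2-fold. Malat1 in Müller glia-like cells exceeded that in rods within the limits, with 1 count and without cells with over 20 Malat1 UMIs. At resolution 0.5 no Müller glia class was found. No paired analysis was possible because there is 1 pool and no replicate number. Depth limits what can be seen of Neat1, Snhg11 and Miat, and intervals cover counting error only.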
